A study of Paralichthys olivaceus with 6 samples.

Results

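The water channel gene *aqp1a.1* and the sodium bicarbonate cotransporter gene *slc4a4a* were examined in the gonads of fertile and sterile double haploid (DH) Japanese flounder (*Paralichthys olivaceus*) females. The members are all unigenes, that is assembled transcript pieces, to which the study's list of differentially expressed unigenes gives one of these 2 symbols. There are 3 of them among the 52474 unigenes of the series, 1 of *aqp1a.1* (Contig28572) and 2 of *slc4a4a* (c7320_g1_i1_463_4923 and c19998_g1_i1_257_13167, called c7320 and c19998 here). They were chosen by the study's own comparison of the fertile with the sterile libraries. It kept the unigenes that differed more than 2-fold between the groups at a false discovery rate (FDR) under 0.05. The difference of the members in that comparison is thus fixed by the choice. Their values are given as a description, and no test of them is read.

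Aquaporin 1 is a channel that lets water cross the cell membrane along an osmotic gradient. In marine teleosts with floating eggs, such as the Japanese flounder, maturing oocytes take up water before ovulation. The drive comes from amino acids freed by the breakdown of yolk proteins and from inorganic ions, and the water enters through an aquaporin of the Aqp1 family. Teleosts carry Aqp1 genes side by side, of which zebrafish *aqp1a.1* is one, and the copy tied to oocyte hydration in marine fish is its neighbour, named Aqp1ab. The symbol of Contig28572 is the closest zebrafish match, which does not tell which flounder copy the unigene is. SLC4A4 moves sodium and bicarbonate together across the membrane and is best known from the mammalian kidney proximal tubule and pancreas, where aquaporin 1 is also found in the kidney tubule, in red blood cells and in blood vessel walls. The flounder annotation of RefSeq (ASM2471397v2) holds 1 gene with the symbol *slc4a4a* and 0 with a symbol that starts with *aqp1a*.

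The fertile and sterile fish were sisters, 5 years old, all DH daughters of one wild female made by mitogynogenesis, so each fish is fully homozygous and differs from its sisters in the maternal alleles it received. By the submitters' labels, ovaries of fertile fish were in stage V and those of sterile fish in stage III, and the part of the stage and the part of fertility cannot be told apart. The fertile fish had given viable progeny and the sterile fish could not be made to give eggs. There were 3 libraries in each group, and total counts per library ranged from 25024469 to 35719683.

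The sterile libraries S4 and S5 have numbers that no labelled sample has and were placed in the sterile group by their letter. Total counts were highest in S4 and then S5, as the study's clean reads were highest in S2 and then S3. The remaining libraries also followed the order of their clean reads. By this order S4 would be the labelled S2 and S5 the labelled S3, which no label states. Their column names also end in another word (shang) than those of the other 4 libraries (qian), and no source used here says what it marks. They stood apart from the other 4 libraries in 28 unigenes that had at least 5 counts in both and 0 elsewhere, where no other combination of 2 libraries had more than 5 such unigenes. None of the *aqp1a.1* and *slc4a4a* unigenes is among the 28. Oocyte markers such as zona pellucida genes were not looked up, since only the unigenes of the study's list carry symbols here. Of the listed genes of follicle cells, *fshr* (the receptor of follicle-stimulating hormone, Contig4746) had from 67 to 266 counts in all 6 libraries.

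*aqp1a.1* (Contig28572) was counted 264 times in F1, 819 times in F2 and 669 times in F3, the fertile fish. In the sterile fish it had 244 counts in S1, 210 in S4 and 371 in S5. Relative to library size, as CPM (the count relative to the library size after TMM scaling), this was 9.79 in F1, 27.8 in F2 and 22.3 in F3, against 9.65 in S1, 6.13 in S4 and 12.0 in S5. Thus F2 and F3 were high, whereas F1 lay inside the range of the sterile fish, and the groups overlapped. F2 had 2.31 times and F3 1.85 times the CPM of the highest sterile fish, and F1 had 0.813 times that level.

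The mean CPM of *aqp1a.1* was 19.9 ± 9.21 in fertile and 9.27 ± 2.97 in sterile gonads (SD, n = 3 each), a ratio of 2.15. Its log2 fold change, fertile over sterile, was 1.11 (standard error, SE, 0.36). This is the member nearest to the 2-fold limit of the study's list, and unigenes just outside that limit carry no symbol here. The 95% counting interval (exact binomial) was 8.64 to 11.04 CPM for F1, 25.9 to 29.7 CPM for F2 and 20.6 to 24.0 CPM for F3. These intervals do not overlap, so the fertile sisters differed from each other by more than counting error. Counting intervals here cover counting error only, and PCR copies of a molecule were not told apart.

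The *slc4a4a* unigene c7320 had 19 counts in F1, 24 in F2 and 17 in F3, against 1 in S1, 8 in S4 and 5 in S5. In CPM, the fertile fish had 0.705, 0.813 and 0.566 and the sterile fish had 0.0395, 0.234 and 0.162. All 3 fertile fish were above all 3 sterile fish, and the lowest fertile fish, F3, had 2.42 times the CPM of the highest sterile fish, S4. Fertile gonads averaged 0.695 ± 0.124 CPM and sterile ones 0.145 ± 0.0981 CPM (SD, n = 3 each), with a log2 fold change of 2.15 (SE 0.44). The counts behind it are few, and the ratio of the pooled counts, 4.48, has a 95% counting interval of 2.47 to 8.68.

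The other *slc4a4a* unigene, c19998, had 2 counts in F1 and 10 in each of F2 and F3, against 0 in S1, 1 in S4 and 3 in S5. F2 and F3 were above the sterile fish, and F1, at 0.0742 CPM, was below S5, at 0.0973 CPM. The 0 in S1 allows up to 0.119 CPM (3 counts), which is more than the level in F1. The unigene did not pass the low-count filter, and the log2 fold change given here, 2.40 (SE 0.83), is from the fit without that filter. The ratio of its pooled counts was 5.75, with a 95% counting interval of 1.95 to 22.9.

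The 2 *slc4a4a* unigenes may be pieces of one transcript or of different ones, which was not tested because their sequences were not used here. When their counts were added together, *slc4a4a* had 21, 34 and 27 counts in F1, F2 and F3 and 1, 9 and 8 counts in S1, S4 and S5. Summed, all 3 fertile fish were above all 3 sterile fish, and the group means were 0.943 ± 0.191 CPM (fertile) and 0.187 ± 0.128 CPM (sterile, SD, n = 3 each), a ratio of 5.04. c19998 made up 26.8% of the summed counts in fertile (95% exact interval 17.6% to 37.8%) and 22.2% in sterile gonads (6.41% to 47.6%). These intervals are for counts pooled over the 3 fish of a group and leave out the spread between fish. With so few counts and fish, a different mix of the 2 unigenes in the 2 groups was not detectable. S1 had the lowest summed *slc4a4a* level of all fish, at 0.0395 CPM, and S4 and S5 were close to each other at 0.263 and 0.260 CPM.

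**Figure D1:**
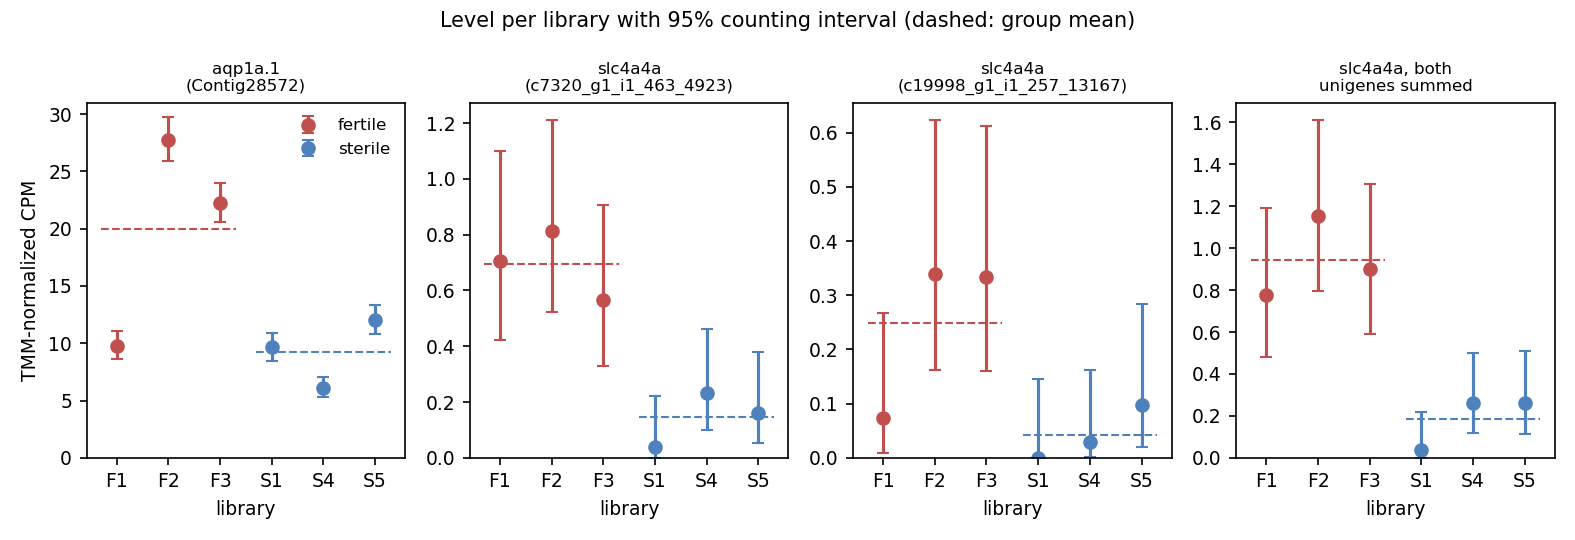
TMM-normalized CPM (vertical axis) of the 3 unigenes and of the summed *slc4a4a* counts in each library (horizontal axis; red, fertile; blue, sterile), with exact 95% counting intervals as bars and group means as dashed lines. F1 sits among the sterile fish for *aqp1a.1* at 9.79 CPM, whereas all fertile fish are above all sterile fish for c7320 and for the sum.

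The unigenes differed in how much the fertile sisters varied. The coefficient of variation of *aqp1a.1* over the fertile fish was 46.2%, where counting alone would give 4.14%, and over the sterile fish it was 32.1%, where counting would give 6.03%. For c7320 it was 17.8% over the fertile fish, below the 22.4% that counting alone would give, and 67.6% over the sterile fish, where counting would give 46.3%. For c19998 it was 60.8% over the fertile fish, where counting would give 36.9%. The 2 *slc4a4a* unigenes thus did not show the same spread, and the counts of both are few for such a comparison. The counting values are the inverse square root of the mean count. F2 and F3 together had 2.56 times the *aqp1a.1* CPM of F1, but 0.979 times its c7320 CPM. For c19998 the same ratio was 4.53, from 2 counts in F1.

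A spread of this size was uncommon among all tested unigenes at the level of *aqp1a.1*. Most of these were not chosen for a difference between the groups. *aqp1a.1* was chosen for one, which F2 and F3 carry, so a large spread over its fertile fish is partly set by the choice. Of the 14507 tested unigenes with a mean between 5 and 50 CPM, 171 (1.18%) had a ratio of the highest to the lowest fertile fish at least as large as its 2.83, and the median ratio was 1.15. The position of F1 was counted over all tested unigenes as well. F1 was inside or below the sterile range while F2 and F3 were both above it in 1678 of the 35787 tested unigenes (4.69%). The same count was 1218 (3.40%) with F2 and 1562 (4.36%) with F3 as the fish that did not stand above the sterile range. With the other fish required to have more than 2 times the highest sterile CPM, which F3 at 1.85 times did not reach for *aqp1a.1*, the count for F1 was 8 (0.0224%).

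Neither *aqp1a.1* nor c7320 was among the 49 of 35787 tested unigenes (0.137%) called by edgeR's quasi-likelihood test, where a call is an adjusted *p* under 0.05 together with more than a 2-fold change. DESeq2 called 324 unigenes, also without a member, and both tested members were among the 5551 unigenes with an unadjusted *p* under 0.05. The fertile fish were all above the sterile fish in 3826 of the tested unigenes (10.7%), c7320 among them. The study's own comparison, made with DEseq, had kept all 3 members among its 1225 unigenes at an FDR under 0.05. Why the members were not called here was not tested. Since that comparison chose the members, by *p*-value as well as by fold change, nothing is read from these counts. In the order of all tested unigenes from the most positive log2 fold change down, c7320 was at position 72 and *aqp1a.1* at position 335.

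Leaving out 1 fish kept the sign for the members but moved *aqp1a.1* across the 2-fold limit. Its log2 fold change was 0.80 without F2 and 0.88 without S4, and 1.44 without F1. For c7320 it was between 1.79 (without S1) and 2.66 (without S4). For c19998, it was 3.62 without S5, which holds 3 of its 4 sterile counts. With S1 as the only sterile library, so without the libraries that stand apart, *aqp1a.1* was at 1.05 (SE 0.52) and c7320 at 3.99 (SE 0.78). c19998 has no such value, since S1 had 0 counts.

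**Figure D2:**
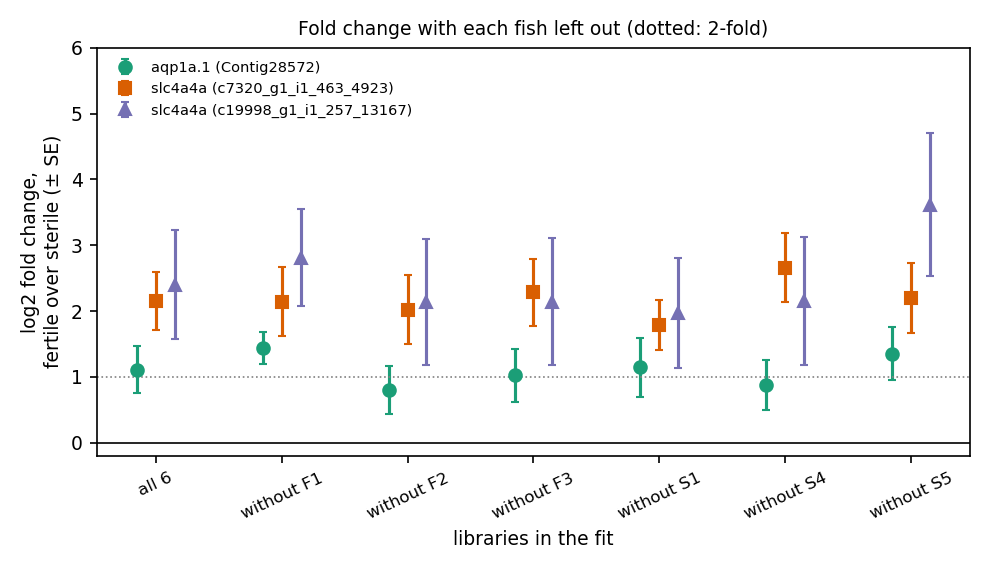
Log2 fold change, fertile over sterile, with its standard error (vertical axis) for the 3 unigenes with all 6 libraries and with each library left out (horizontal axis). All values are above 0, and *aqp1a.1* drops below the dotted 2-fold line without F2 (0.80) or without S4 (0.88).

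The study placed these unigenes in the pathway of proximal tubule bicarbonate reclamation, together with phosphoenolpyruvate carboxykinase (*pck1*, *pck2*), a key enzyme of gluconeogenesis, and a subunit of the sodium pump (*atp1a3b*). All 10 unigenes are from the study's list, which was drawn from the same fish, so their directions are not independent evidence. Of the 10, 4 passed the low-count filter, 2 of them higher on average in fertile and 2 in sterile gonads, and edgeR and DESeq2 each called 0 of these 4 (all 4 had an unadjusted *p* under 0.05). DESeq2 called 1 of those below the filter. The median was -0.16, beside -0.0099 over all tested unigenes. The 2 that were not members were both *atp1a3b*, the alpha 3 subunit of the pump that moves sodium out of and potassium into cells.

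One *atp1a3b* unigene (c11649_g2_i1_353_18734) had 14, 7 and 14 counts in F1, F2 and F3 against 24, 25 and 50 in S1, S4 and S5, a log2 fold change of -1.43 (SE 0.40, edgeR adjusted *p* = 0.182). The other (c11649_g1_i1_230_18733) had 3, 4 and 8 against 9, 16 and 25 counts and a log2 fold change of -1.65. In both, every sterile fish was above every fertile fish, the opposite order to that of c7320. This order was seen in 4020 of all tested unigenes (11.2%).

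The 5 *pck1* and *pck2* unigenes did not pass the filter and had another pattern among the sisters. Their summed counts were 69 in F1, 110 in F2 and 6 in F3, against 1, 1 and 3 in S1, S4 and S5. Thus F1 and F2 were high and F3 was near the sterile fish, whereas for *aqp1a.1* it was F1 that was near them. The *pck1* unigene c6286_g1_i1_458_4631 had 20, 34 and 1 counts in the fertile and 0 in all sterile fish, and its mean CPM was at least 19.4-fold higher in fertile gonads with a floor of 3 counts over the sterile group.

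**Figure D3:**
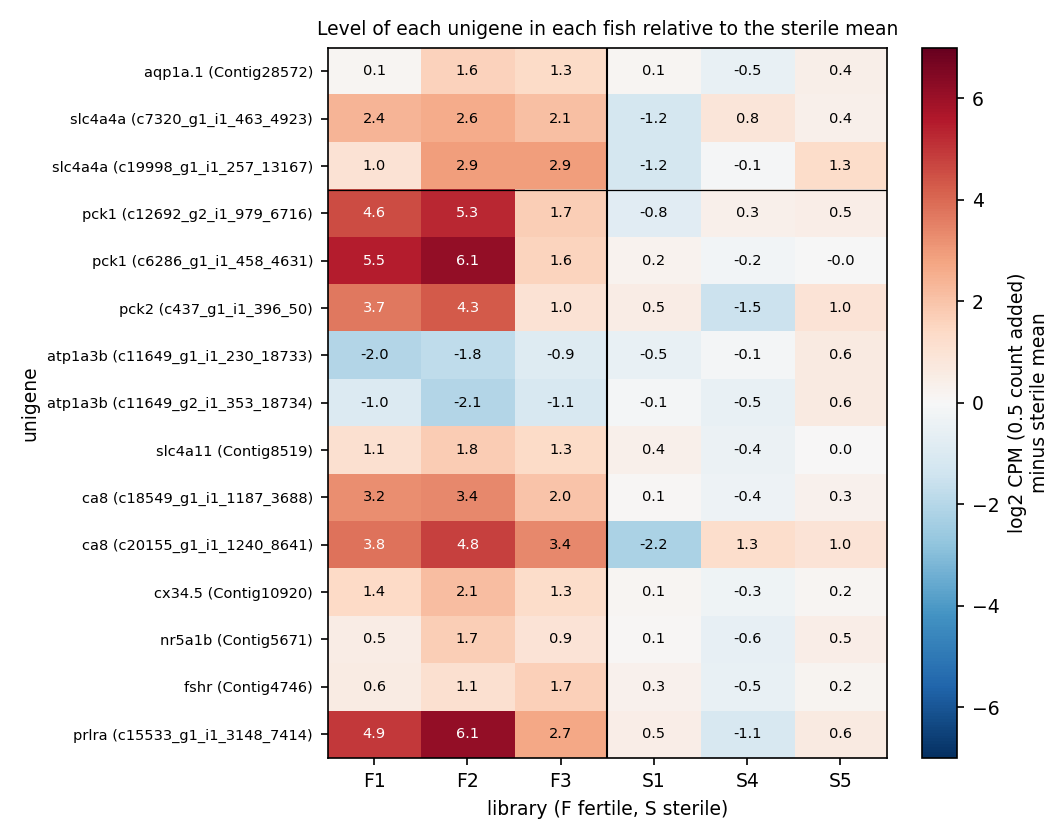
Level of each unigene (rows) in each library (columns, F fertile, S sterile) as log2 CPM with 0.5 count added, minus the mean of the 3 sterile libraries. F1 is at 0.13 for *aqp1a.1* where F2 is at 1.63, and F3 is the lowest fertile fish for the *pck1*, *pck2* and *prlra* unigenes.

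A list of 21 unigenes of acid-base and ion handling, the 2 of *atp1a3b* included, was taken from the same fit, and again all of them are from the study's list. Of these, 18 were tested, 5 above and 13 below 0 on the log2 scale, and the median was -1.22. In total, edgeR called 1 higher in fertile gonads, beside 0.081% of all tested unigenes in this direction, and 0 in the other direction, and 17 were not called. An unadjusted *p* under 0.05 was found for 18, and DESeq2 called 7. Over all unigenes, 5551 of 35787 had such a *p*, and DESeq2 called 324 of 34769. The study's choice of the listed unigenes largely sets these counts. The edgeR call was *cx34.5* (Contig10920), a connexin of gap junctions, the channels that join follicle cells and oocytes. F1, F2 and F3 had 581, 1055 and 596 counts, and S1, S4 and S5 had 224, 229 and 280. It stood at 1.65 on the log2 scale (SE 0.23, edgeR adjusted *p* = 0.0436). Any 1 sterile fish less (S1, S4 or S5), or S1 alone as the sterile group, ended the call, and adjusted *p* ranged from 8.8e-13 to 0.332 over the edgeR and DESeq2 alternatives.

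Of the same bicarbonate transporter family as *slc4a4a*, *slc4a11* (Contig8519) differs in function, since in mammals it carries protons and lets water pass. Its CPM was 16.8, 25.7 and 19.4 in F1, F2 and F3 and 9.84, 5.78 and 7.66 in S1, S4 and S5. All fertile fish were above all sterile fish, with 20.6 ± 4.59 against 7.76 ± 2.03 CPM (SD, n = 3 each), but the log2 fold change, 1.41 (SE 0.21), did not pass (edgeR adjusted *p* = 0.0516). It passed without a low-count filter, with DESeq2 and without F1. F1 was thus above the sterile range here, which it was not for *aqp1a.1*.

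Of *ca8*, a relative of the carbonic anhydrases that has lost the activity of converting carbon dioxide to bicarbonate, 2 unigenes were tested and 1 was not. In c18549_g1_i1_1187_3688, F1, F2 and F3 had 43, 51 and 20 counts against 4, 4 and 6 in S1, S4 and S5, a log2 fold change of 3.06 (SE 0.46, edgeR adjusted *p* = 0.052). It passed without a low-count filter, with DESeq2 and without F3. The other tested unigene, c20155_g1_i1_1240_8641, was at 3.53 on the log2 scale and did not pass (edgeR adjusted *p* = 0.0865), but DESeq2 called it. Against S1 alone, where it had 0 counts, it was at 8.45. The other fertile-high unigene was a second one of *cx34.5* (c15137_g1_i3_517_15390), at 1.17 with all fish and 0.62 against S1 alone.

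The 13 with negative log2 fold changes lay between -1.66 and -1.03, and none passed edgeR's test with all fish. They include genes of channels, channel partners and transporters for sodium, potassium or calcium (*scn4aa*, *scn4bb*, *kcnh1a*, *kcnh6*, *slc8a4a*, *trpm3*, *unc80*, *atp1a3b*), a calcium release channel of internal stores (*ryr3*, 2 unigenes), a connexin (*cx52.6*) and *oxsr1b*, a kinase that switches on chloride cotransporters. The potassium channel gene *kcnh6* had 82, 69 and 208 counts in F1, F2 and F3 against 333, 317 and 253 in S1, S4 and S5, and stood at -1.31 (SE 0.36) on the log2 scale, passing without F3. *cx52.6* had 98, 234 and 248 against 328, 467 and 595 counts and stood at -1.21. DESeq2 called *cx52.6* and 1 of the *ryr3* unigenes. F1 was the lowest fish for *cx52.6*.

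**Figure D4:**
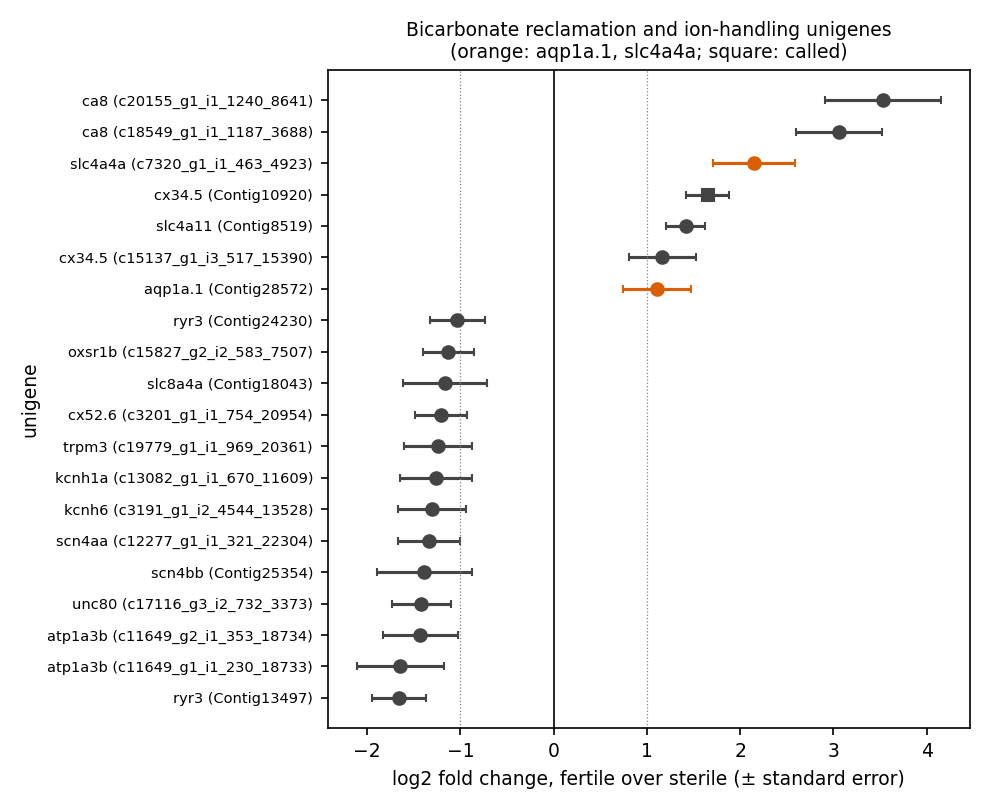
Log2 fold change, fertile over sterile, with its standard error (horizontal axis) for the tested unigenes (vertical axis) of bicarbonate reclamation and of ion handling. The unigenes of *aqp1a.1* (1.11) and *slc4a4a* (2.15) are in orange, the called *cx34.5* unigene is a square, and the empty space around 0 follows from the 2-fold limit of the study's list.

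Amino acids are osmotic effectors of oocyte hydration, and 9 unigenes of amino acid transporters were on the study's list. Of the 7 tested, 4 were above and 3 below 0 on the log2 scale (median 1.06). edgeR called 0 and DESeq2 called 3 of them, and 7 had an unadjusted *p* under 0.05. Over all unigenes, DESeq2 called 324 of 34769, and 5551 of 35787 had such a *p*. These counts too are largely set by the study's choice. The 3 below 0 were *slc6a14* at -2.28, *SLC3A2* at -2.04 and *slc3a2b* at -1.72. No alternative fits are reported for these 3. The groups overlapped for *slc6a14*, with 69, 1 and 15 counts in F1, F2 and F3 against 48, 137 and 268 in S1, S4 and S5. DESeq2 called *slc38a2*, at 1.055, and its other calls were among those below 0. The largest positive values were those of 2 unigenes of *slc1a4*, a carrier of small neutral amino acids, at 3.12 and 3.01. DESeq2 called neither. Both rest on few counts, 9, 17 and 10 against 1, 2 and 1 in the first (c7534_g2_i1_249_4983) and 13, 17 and 11 against 0, 0 and 5 in the second (c18325_g1_i1_379_3675). Without S5, which holds all sterile counts of the second, its fitted value was 6.81.

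Genes of the follicle's hormone response and steroid synthesis were on the side of *aqp1a.1* and *slc4a4a* too. All of these unigenes are from the study's list, so their directions and counts of calls are largely set by that choice. All 4 tested unigenes of *fshr*, *prlr*, *prlra* and *nr5a1b* had positive log2 fold changes, of which edgeR called 0 and DESeq2 called 3, those of *fshr*, *prlr* and *prlra* (all 4 had an unadjusted *p* under 0.05). The largest were *prlra* at 5.13 and *prlr* at 4.90, receptors of prolactin, and *prlra* had 129, 327 and 30 counts in F1, F2 and F3 against 5, 2 and 7 in S1, S4 and S5. Both were called by edgeR without F3, and *prlr* was at 8.87 against S1 alone, which had 0 counts of it. All 8 tested unigenes of steroid-synthesis enzymes were positive as well, with a median of 3.003, and edgeR called 3, of *CYP11A1*, *Cyp11a1* and *Hsd3b6*, where it called 0.081% of all tested unigenes in this direction. DESeq2 called 5 of the 8, and all 8 had an unadjusted *p* under 0.05. The *CYP11A1* unigene c15635_g1_i2_1925_7450, of the side-chain cleavage enzyme, had 70, 138 and 50 counts in F1, F2 and F3 against 5, 4 and 1 in S1, S4 and S5, and it lost its call without S1 or S4 and against S1 alone. The call of *Cyp11a1* (c6200_g1_i1_1114_9587) ended without any 1 of the 6 fish and against S1 alone, and that of *Hsd3b6* without S4 and against S1 alone. *Cyp11b2* had a log2 fold change of 4.52 and was not called by edgeR with all fish, but DESeq2 called it and so did edgeR without F3.

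In whole gonads, fewer cells of a type and less RNA per cell cannot be told apart, and the genes examined are active in other tissues that a dissected gonad could hold. The marker unigenes here and in the next paragraphs are all from the study's list. Their directions and counts of calls are largely set by that choice. Over all unigenes, DESeq2 called 324 of 34769, and 5551 of 35787 had an unadjusted edgeR *p* under 0.05. Of 13 unigenes of kidney proximal tubule genes (*lrp2a*, *havcr1*, *enpep*, *anpepa*, *slc6a18*), 10 were tested. These were of *lrp2a*, *havcr1* and *enpep* only, most of them of *lrp2a*, so they are not independent genes. The log2 fold changes of all 10 were negative (median -1.62). edgeR called 0 and DESeq2 called 5 of them, and 10 had an unadjusted *p* under 0.05. The lowest were those of *enpep*, at -3.38 (Contig23983) and -2.97 (Contig23982). These were -4.99 and -4.72 without F1, and -1.31 and -0.56 against S1 alone. The summed CPM of the list was 3.96 to 8.01 in fertile and 11.6 to 30.8 in sterile fish. Whether kidney tissue was present was not tested. The membrane peptidase *anpepa* and the amino acid transporter *slc6a18* went the other way, higher on average in fertile fish, but were too low to be tested. They had 3, 2 and 6 counts and 14, 3 and 19 counts in the fertile fish, and 0, 0 and 0 and 1, 1 and 5 counts in the sterile fish.

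For exocrine pancreas (*ela2*, *cpa4*, *PRSS1*), 3 of 4 unigenes were tested, all with negative log2 fold changes (edgeR called 0, DESeq2 called 1, and 3 had an unadjusted *p* under 0.05). Their lowest were *cpa4* at -4.05 and *ela2* (Contig19244) at -2.63. *cpa4* was at -6.31 without F1 and -2.48 against S1 alone, where *ela2* was at 0.12. The summed CPM was 0.644 to 1.71 in fertile and 2.93 to 12.9 in sterile fish. The beta globin *ba1l* (Contig26821), a red blood cell marker, had 5, 7 and 0 counts in F1, F2 and F3, 3 in S1, 262 in S4 and 110 in S5. It did not pass the low-count filter, and its relation to the *aqp1a.1* level was not tested.

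Leukocyte markers numbered 16 unigenes, with a summed CPM of 56.7 to 73.9 in fertile and 95.4 to 190.6 in sterile fish. Most of this sum is from *cd74a*. Its Contig25050 had 20.46 to 31.37 CPM in fertile and 40.22 to 79.95 in sterile fish, and its Contig25051 had 18.6 to 28.94 and 37.83 to 80.73. The sum also adds unigenes that were higher in fertile fish. Of the 12 tested, 9 were negative and 3 positive. The positive ones were matched to *mpx*, a peroxidase of neutrophils. edgeR called 1 of them, at 3.01, where it called 0.081% of all tested unigenes in this direction. The call ended without any 1 sterile fish, and the value was 2.83 against S1 alone. DESeq2 called 10 of the 12, the *mpx* unigene c7305_g1_i1_1592_9835 among them, and all 12 had an unadjusted *p* under 0.05. These counts too are largely set by the study's choice of the unigenes. As to RNA quality, the small nuclear RNA *rn7sk* was called higher in sterile gonads by edgeR at -2.84 (0.0559% of all tested unigenes were called in this direction), a call that ended without F1, F2, F3, S4 or S5 and against S1 alone, and *rpph1* was at -3.56. *rpph1* had 5, 28 and 18 counts in F1, F2 and F3 against 78, 221 and 347 in S1, S4 and S5. edgeR did not call it with all fish, but did without a low-count filter and without S1. The main mitochondrial *COX1* unigene (Contig13209) was at 1.72 and not called by edgeR. It had 271663, 617776 and 341062 counts in F1, F2 and F3 against 126332, 119563 and 134099 in S1, S4 and S5. DESeq2 called all 3 of these tested unigenes, and the groups overlapped in none. The study's choice largely sets these calls too. Further unigenes matched to *COX1*, *COX2*, *COX3* and *ATP6* did not pass the low-count filter. Their counts were almost only in S4 and S5, the libraries that stand apart. Whether they come from the same mitochondrial genome as Contig13209 was not tested, and no direction between the groups is read from them. The largest of them, *COX1* Contig23079, had 67 counts in S4, 44 in S5 and 0 in the other libraries. By its methods, the study made libraries only from RNA that reached a set RNA Integrity Number, and it prints no value per library. The part of these cell types, of RNA quality and of mitochondrial content in the *aqp1a.1* and *slc4a4a* levels was not tested.

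Genes with a like pattern were sought among the other unigenes with a symbol that passed the filter, by the root mean square difference of log2(CPM + 1) over the 6 libraries after each unigene's own mean was taken off. The closest to *aqp1a.1* was *nr5a1b* (Contig5671), a nuclear receptor related to the steroidogenic factors, with a difference of 0.215, where *aqp1a.1* itself varied by 0.692 around its mean. Its CPM was 9.64, 21.7 and 12.8 in F1, F2 and F3, and 7.08, 4.47 and 9.28 in S1, S4 and S5. As for *aqp1a.1*, F2 was the highest and S4 the lowest fish, but here F1 was just above S5. Next were *col4a2* (0.278), a basement membrane collagen, and *pnp5a* (0.288), a purine nucleoside phosphorylase.

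For c7320 the closest were *yap1* (0.0862), a transcriptional coactivator of the Hippo pathway, *dachd* (0.0864) and the *slc1a4* unigene c18325_g1_i1_379_3675 (0.101), where c7320 itself varied by 0.299. All 3 are at low levels, as c7320 is, and the scale compresses differences between low values. The unigenes searched were all chosen by the study for a difference between these groups, so a like pattern between them and the members is partly set by the choice.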

How the data were processed

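The authors assembled filtered reads with Trinity, merged contigs into unigenes with CAP3, mapped reads with BWA (0.7.8-r455 per the labels) and deposited raw counts per unigene, with no normalization. Picard is named in the methods as the counter and HTSeq in the processing notes. The sources used here do not say if counting took account of strand or what was done with reads that fit more than 1 unigene. Symbols are the study's blast matches. No unigene identifier (0) is among the symbols of the reference gene table, and no sequences were used.

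The deposited counts were fitted with edgeR 4.0.16 under R 4.3.3 (TMM, default filterByExpr, glmQLFit, glmQLFTest, Benjamini-Hochberg adjustment over 35787 unigenes). Called unigenes changed more than 2-fold at an adjusted *p* under 0.05. Levels are CPM from library size times TMM factor over tested unigenes, standard errors are log2 fold change over the square root of F, and counting intervals are exact binomial (scipy 1.17.1). The test was tested on simulated data. c19998 did not pass the filter, so its value is from the unfiltered fit. Alternatives were RLE and upper-quartile normalization, no filter, DESeq2 1.42.0, each library left out and S1 as the only sterile library. Each library is taken as 1 fish, although the labels mention pooled RNA, and *p*-values set the difference between the groups against the spread between these libraries.

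The members, lists and tests were chosen with earlier results of these data known. Named genes are the members, unigenes of the bicarbonate and ion-handling lists, from each other list the 2 with the largest absolute log2 fold change and any called, and 3 genes of like pattern per tested member. *fshr*, *ba1l*, *COX1*, *COX2*, *COX3*, *ATP6*, *anpepa*, *slc6a18*, *slc6a14*, *SLC3A2*, *slc3a2b* and *slc38a2* were named after their values were seen.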

Additional observations from a re-analysis of the deposited data

How the results depend on the processing

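All 4 values of the members (*aqp1a.1*, c7320, c19998 and the *slc4a4a* sum) stayed positive under every alternative that gave a value. With a library left out, log2 fold changes were 0.80 to 1.44 for *aqp1a.1*, 1.79 to 2.66 for c7320, 1.97 to 3.62 for c19998 and 1.86 to 2.65 for the sum. Against S1 alone, c7320 was at 3.99 and the sum at 4.57, since S1 had 1 *slc4a4a* count, and c19998 gave no value because S1 had 0. The count of called unigenes, 49, was 79 without a filter, 324 with DESeq2 and 34 to 97 with a library left out. The cause of the DESeq2 difference was not tested. Of the other 42 named unigenes, 1 reversed, *ela2* (Contig19244), at 0.12 against S1 alone. Low counts limit *slc4a4a*, with 82 counts in fertile and 18 in sterile gonads. No paired analysis was possible because the study describes no matching of fish, and the columns of the 2 groups share only 1 number. No source used here says that F1 and S1, which share it, are a pair.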

Other observations

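Other unigenes that the study lists beside *aqp1a.1* and *slc4a4a* under bile secretion include those of glucose transporters and of the export pump *abcg2a*, which did not pass the low-count filter. The *slc2a1a* unigenes, of a glucose uptake carrier, had 16, 11 and 8 counts (c519_g1_i1_210_65) and 5, 10 and 5 counts (c9507_g1_i1_203_5617) in F1, F2 and F3. In S1, S4 and S5 they had 3, 2 and 3 and 2, 1 and 1 counts, so every fertile fish was above every sterile fish in CPM for both. This order was seen in 3826 of the 35787 tested unigenes (10.7%), to which neither of these belongs. Both *slc2a1a* unigenes are from the study's list, so it is largely set by that choice. *abcg2a* (c11614_g2_i1_242_6307) had 6 counts in F1, 20 in F2 and 0 in F3 and in all sterile fish. F3 was thus at 0 for *abcg2a*, as it was for 2 of the *pck1* unigenes, while its *aqp1a.1* level was the second highest of the 6 fish. *cyp3a65* (c19922_g2_i2_448_23311), of the same list and also below the filter, was higher on average in sterile fish. It had 3, 2 and 0 counts in F1, F2 and F3 against 3, 8 and 15 in S1, S4 and S5. Of the 4 tested unigenes of the bile secretion list, 2 were above and 2 below 0 on the log2 scale. *slc2a1a*, *abcg2a* and *cyp3a65* were named after their values were seen.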
